A study of Mus musculus with 8 samples.

Results

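The cardiac GATA factors *Gata4*, *Gata5* and *Gata6* and their FOG (Friend of GATA) cofactors *Zfpm1* and *Zfpm2* were followed in RNA-seq of the mouse outflow tract (OFT), the vessel-like arterial pole of the embryonic heart. These 5 genes were taken by name from a table of 14608 genes, and 5 of 5 were present. RNA of the OFT was sequenced at embryonic day 11.5 in 8 libraries, 4 with the label control and 4 with the genotype Mib1V943F/+ Gata6STOP/+ (mutant libraries below). The study asked how the *Mib1* allele acts on the effects of losing a functional copy of *Gata6*. None of the libraries is labelled as carrying either allele alone, so the effects of the alleles cannot be told apart here. Mib1V943F is a missense allele of a ubiquitin ligase that NOTCH ligands need, and Gata6STOP is a null allele with a premature stop codon, placed on the other chromosome of the pair. The genotype of the control embryos is given as control, with WT in the library titles, and their strain background is not given in the sources used here. The series design gives 3 individuals per pooled library while the methods describe the pools differently, so the number of embryos behind a library is uncertain, and p-values measure the spread between pools.

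GATA4, GATA5 and GATA6 are zinc finger transcription factors that bind the sequence GATA in the regulatory regions of genes of the heart, where they act together with NKX2-5, TBX5 and other cardiac factors. FOG1 (*Zfpm1*) and FOG2 (*Zfpm2*) do not bind these sites themselves but dock on the amino-terminal zinc finger of a GATA factor and recruit corepressors, among them the NuRD complex and CtBP proteins. FOG1 is best known from its work with GATA1 in red cells and platelets, and FOG2 from its work with GATA4 in heart development, where its loss disturbs septation and OFT alignment.

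RefSeq start regions were matched for 2 of the 5 genes, *Gata5* and *Zfpm1*, and are shown as a description. The GC content used further below is that of transcripts, not of these regions. The sequences come from GRCm38.p6, are written 5′ to 3′ on the strand of the gene and stop where the annotated first exon begins, and capitals mark the letters of a GC box, GGGCGG, read on either strand.
Gata5, chr2:180334700-180334929, minus strand: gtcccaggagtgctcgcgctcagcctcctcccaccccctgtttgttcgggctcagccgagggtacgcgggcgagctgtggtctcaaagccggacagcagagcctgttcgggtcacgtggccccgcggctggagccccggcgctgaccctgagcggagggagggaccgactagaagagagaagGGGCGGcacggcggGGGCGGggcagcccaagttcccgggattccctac
Zfpm1, chr8:122281891-122282140, plus strand: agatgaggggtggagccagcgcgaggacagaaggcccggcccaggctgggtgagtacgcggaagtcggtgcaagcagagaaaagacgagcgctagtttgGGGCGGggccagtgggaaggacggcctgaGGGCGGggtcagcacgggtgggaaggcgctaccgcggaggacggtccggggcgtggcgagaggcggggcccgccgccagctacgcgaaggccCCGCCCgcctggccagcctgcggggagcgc
The 230 bases of *Gata5* hold 70.4% G and C with 2 GC boxes, and the 250 bases of *Zfpm1* hold 73.2% with 3. Over the 32851 windows of the table the median was 52.4% G and C, and a GC box stood in 29.8% of windows of the *Gata5* length and 32.7% of those of the *Zfpm1* length. The letters GATA, searched on both strands, occurred 0 times in both windows, against 51.9% and 53.6% of all windows of these lengths. A match or its lack describes these letters only.

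All 5 genes were well above the limits of counting. The reads on listed genes, inferred from the smallest step of each column, ranged from 10669420 in control replicate 2 to 30469165 in mutant replicate 3. A member was counted from at least 4431 reads in every library for *Gata4*, 2945 for *Gata6*, 2684 for *Zfpm1*, 945 for *Gata5* and 287 for *Zfpm2*. The tissue label was checked against markers. *Tnnt2* (cardiac troponin T) was between 1345 and 2031 CPM (reads per 1000000, as normalized by the authors) over the 8 libraries, *Pecam1* (endothelium and endocardium) between 139.8 and 164 CPM, *Sox9* (cushion mesenchyme) between 77.7 and 124 CPM, and *Sema3c* (OFT myocardium) between 165.5 and 293 CPM. The embryonic globin gene *Hba-x* was between 345 and 1085 CPM, so blood cells were present in every library.

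To order the genes by level, CPM was divided by the length of the merged exons in GRCm38. *Gata4* (ENSMUSG00000021944, chromosome 14, 63198922 to 63271692, minus strand) was the most abundant, at 88.0 ± 9.82 CPM per kb (SD over the 8 libraries). *Zfpm1* (ENSMUSG00000049577, chromosome 8, 122282141 to 122337251, plus strand) followed with 53.3 ± 10.5 CPM per kb and *Gata6* (ENSMUSG00000005836, chromosome 18, 11052064 to 11085635, plus strand) with 39.3 ± 4.21 CPM per kb. *Gata5* (ENSMUSG00000015627, chromosome 2, 180325133 to 180334699, minus strand) stood at 24.6 ± 2.88 CPM per kb. The lowest was *Zfpm2* (ENSMUSG00000022306, chromosome 15, 40655035 to 41104592, plus strand), at 2.99 ± 0.430 CPM per kb. This level was 8.21 times below that of *Gata5*, or 4.99 times with the longest transcript as the length. The ranges over the libraries overlapped only between *Zfpm1* and *Gata6*, and these genes changed places when the longest transcript was taken as the length, with 67.5 ± 7.24 CPM per kb for *Gata6* and 55.1 ± 10.9 for *Zfpm1*.

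**Figure D1:**
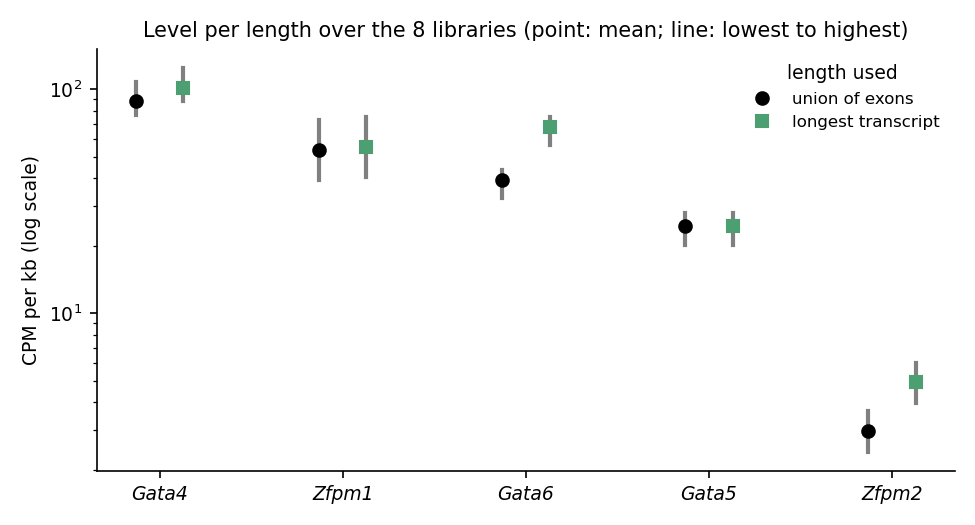
CPM per kb of the 5 genes on a log axis, with points for the mean and lines from the lowest to the highest of the 8 libraries, for the merged exons (circles) and the longest transcript (squares). *Gata4* was highest and *Zfpm2* lowest with either length, and only *Zfpm1* and *Gata6* change places.

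The annotation places other transcripts over these genes, and the sources used here do not say whether counting used the strand of the reads. *Gata5os*, antisense to *Gata5* over 1843 bp, was between 0.190 and 1.66 CPM, against at least 66.2 CPM for *Gata5*. 1010001N08Rik, on the minus strand and overlapping the first 504 bp of *Gata6*, was at 27.0 ± 2.75 CPM in control and 25.8 ± 2.94 CPM in mutant libraries (SD, n = 4 each). *Zfpm1* lies wholly within the much longer gene model Gm20388 on the same strand, and 3 short gene models lie within *Zfpm2*, none of them in the table, so that the counts of both FOG genes are uncertain to the extent that reads were shared.

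The targeted gene was looked at first. In the order of the replicate numbers, the control libraries held *Gata6* at 236.5, 279, 271 and 261 CPM and the mutant libraries at 213, 284, 276.5 and 224 CPM. The lowest 2 values were those of mutant replicates 1 and 4, while mutant replicate 2 held the highest value of all, so the groups overlapped. The means were 262 ± 18.5 and 249 ± 36.1 CPM (SD, n = 4 each), with adjusted p = 0.752 in limma and exact permutation p = 0.543. The log2 fold change was -0.08, and its 95% confidence interval of -0.29 to 0.14 corresponds to a change between -18.4% and 9.82% on the scale of CPM + 0.5, while a loss of the RNA of 1 of 2 copies would be -1 on the log2 scale. The count of a gene pools both alleles, so RNA of the STOP allele and of the intact allele cannot be told apart, and the labels could not be checked by this level. *Mib1*, whose allele here is a missense one, was at 122 ± 15.6 CPM in control and 127.5 ± 6.62 CPM in mutant libraries (SD, n = 4 each), which checks nothing either. For these and all further genes of the bulk tissue, fewer cells of a type and less RNA per cell cannot be told apart.

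For *Gata4*, a partner and close relative of GATA6 in cardiomyocytes, endocardium and cushion mesenchyme, the control libraries had 328, 420, 341 and 343 CPM and the mutant libraries 299.6, 301, 361.5 and 355 CPM. Control replicate 2 stood above the others, and mutant replicates 3 and 4 exceeded the remaining 3 control libraries. Group means were 358 ± 42.0 and 329 ± 33.5 CPM (SD, n = 4 each), and the mutant libraries differed by -0.12 ± 0.09 on the log2 scale (estimate and standard error, 95% interval -0.32 to 0.09, adjusted p = 0.603 in limma, exact permutation p = 0.343). Without control replicate 2 the log2 fold change was -0.04.

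*Gata5*, in the early heart a gene mostly of the endocardium, was at 74.6, 89.6, 80.3 and 70.9 CPM in control and at 81.65, 66.2, 91.6 and 89.5 CPM in mutant libraries. Mutant replicate 2 held the lowest value and mutant replicate 3 the highest, so the mutant libraries spanned all control values. The means were 78.8 ± 8.16 and 82.2 ± 11.5 CPM (SD, n = 4 each), and the difference was 0.06 ± 0.11 on the log2 scale (95% interval -0.18 to 0.29, adjusted p = 0.849 in limma, exact permutation p = 0.657). *Gata5* was the only gene of the 5 with a higher mean in the mutant libraries, and without mutant replicate 3 the difference was -0.00034.

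*Zfpm1* varied most, from 137 CPM in mutant replicate 2 to 254.5 CPM in control replicate 2, a range of 1.85 times. Its control values were 172, 254.5, 210.5 and 169.8 CPM, and its mutant values were 169.7, 137, 214 and 167 CPM. Replicates 1 and 4 of both genotypes lay between 167 and 172 CPM, so the difference between the means of 202 ± 39.9 and 172 ± 31.4 CPM (SD, n = 4 each) rested on the other libraries. The difference of -0.23 ± 0.14 on the log2 scale was the largest of the 5 genes (95% interval -0.54 to 0.09, adjusted p = 0.529 in limma, exact permutation p = 0.257). It was -0.11 without control replicate 2, -0.13 without mutant replicate 2 and -0.34 without mutant replicate 3, where the 95% interval of -0.64 to -0.03 left out 0 (adjusted p = 0.4505 in limma).

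*Zfpm2*, the FOG gene of the developing myocardium and valves, was at 34.8, 27.2, 30.9 and 26.2 CPM in control and at 24.8, 33.2, 28.0 and 23.0 CPM in mutant libraries. The 2 lowest values were those of mutant replicates 1 and 4, the libraries that were also lowest in *Gata6*. Its means were 29.8 ± 3.88 and 27.3 ± 4.46 CPM (SD, n = 4 each), which differed by -0.13 ± 0.12 on the log2 scale (95% interval -0.40 to 0.13, adjusted p = 0.663 in limma, exact permutation p = 0.40).

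**Figure D2:**
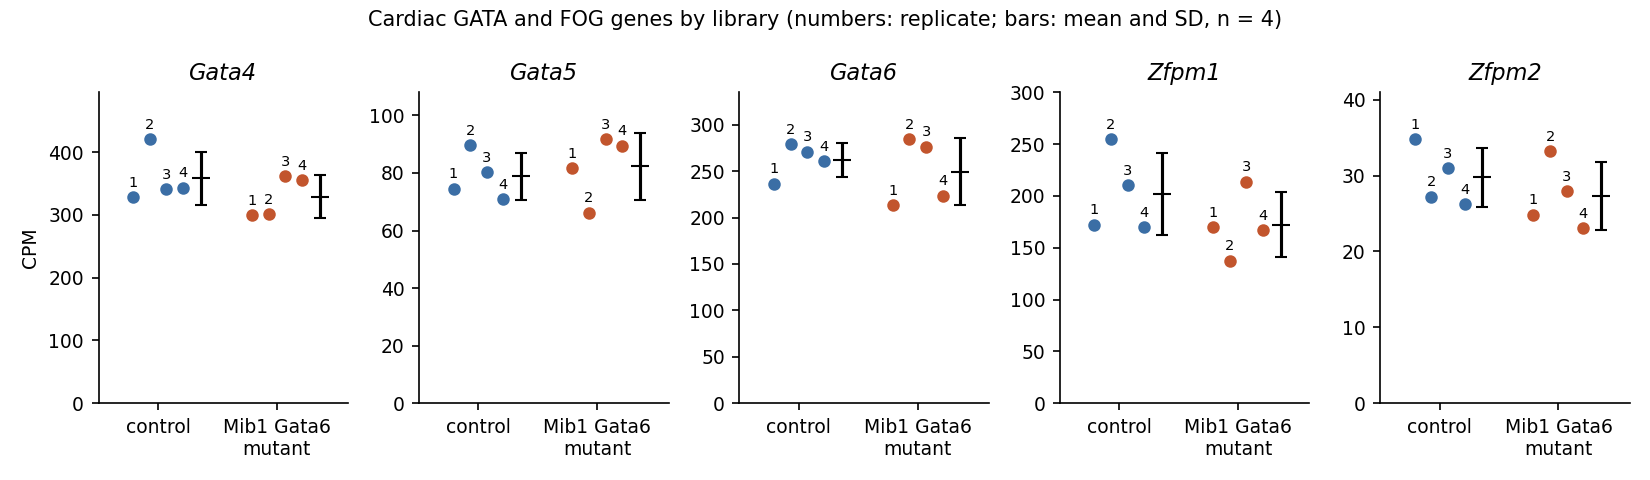
CPM of each gene in each library, with replicate numbers beside the points and the mean and SD (n = 4) as bars, for control and Mib1V943F/+ Gata6STOP/+ (mutant) libraries. The groups overlap in all 5 genes, and *Zfpm1* has the widest spread, from 137 to 254.5 CPM.

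Thus 0 of the 5 genes passed an adjusted p-value of 0.05 in limma, where 0 of all 14608 genes passed (0.0%). Before adjustment, 0 of the 5 genes had a p under 0.05 in limma, beside 1763 genes of the table (12.1%), which divide into 796 with a higher mutant mean (5.45%) and 967 with a lower one (6.62%). The groups overlapped in 5 of the 5 genes, while they did not in 7.1% of the table, with 3.2% above and 3.9% below control. When every library was scaled to the same sum, the split became 1161 higher and 740 lower. A p-value that misses the threshold does not show equal levels, and the intervals state what the data allow. The lowest bound among the GATA factors was -0.32 on the log2 scale (*Gata4*), and among the FOG genes it was -0.54 (*Zfpm1*).

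The balance among the genes was then read within libraries, where scaling cancels. The GC trend of a library, described below, does not cancel between genes of unlike GC content. The ratio of *Gata4* to *Gata6* CPM was between 1.26 and 1.505 in control libraries and between 1.06 and 1.59 in mutant libraries, and both mutant extremes, replicates 2 and 4, lay outside the control range. Of the summed CPM per kb of the 3 GATA genes, *Gata4* made up 58.7 ± 1.47% in control and 57.0 ± 1.996% in mutant libraries, *Gata6* 25.9 ± 1.38% and 26.0 ± 3.62%, and *Gata5* 15.4 ± 0.694% and 17.0 ± 1.86% (SD, n = 4 each). In all 3 shares the SD of the mutant libraries was above that of the control libraries, a difference that was not tested. The ratio of *Gata5* to *Gata4* CPM was 0.221 ± 0.0131 in control and 0.2495 ± 0.0219 in mutant libraries, with overlap at mutant replicate 2 (0.220). *Zfpm2* and *Zfpm1* stood in a CPM ratio of 0.153 ± 0.0390 in control and 0.164 ± 0.0521 in mutant libraries, between 0.107 in control replicate 2 and 0.242 in mutant replicate 2. The same libraries had the highest and the lowest GC slope (below).

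The libraries differed in how strongly their values followed the GC content of transcripts, and *Zfpm1* moved with that property. The GC slope of a library is the change of log2(CPM + 0.5), relative to the mean of each gene over all libraries, per 10 percentage points of GC content of the longest transcript. By replicate number the slopes of the control libraries were -0.0391, 0.213, 0.105 and -0.0451, and those of the mutant libraries were -0.0249, -0.179, 0.0235 and -0.0522. The relation was looked for after the values of *Zfpm1* had been seen. The highest slope was that of control replicate 2, which was also the least deeply sequenced library, and the lowest was that of mutant replicate 2. With 66.8% GC, *Zfpm1* is the richest of the 5 transcripts, while *Gata4*, *Gata5* and *Gata6* have 57.4%, 56.9% and 55.3%, and *Zfpm2* has 44.0%.

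The slopes were fitted to the same values, over genes that include these 5, so a GC-rich transcript can follow them by construction. The p-values of this paragraph are therefore descriptive, and how many other genes follow the slope as closely was not counted. Across the 8 libraries *Zfpm1* correlated with the GC slope with a Pearson r of 0.97 (exact permutation p = 7.7e-04, adjusted p = 0.00384 over the 5 genes) and a Spearman rho of 0.905 (exact permutation p = 0.00456, adjusted p = 0.0228). Without control replicate 2 and mutant replicate 2, the libraries farthest from the median slope, r was 0.88 (exact permutation p = 0.0431). After subtraction of group means from both measures r was 0.97. It is given without a p-value, since pairings across genotypes give no exact test once group means are subtracted. *Gata5* had an r of 0.65 (exact permutation p = 0.0811, adjusted p = 0.135, rho 0.619 with exact permutation p = 0.115), which became 0.89 after subtraction of group means and 0.19 without those 2 libraries. For *Gata4* r was 0.79 (exact permutation p = 0.0237, adjusted p = 0.0592, rho 0.429 with exact permutation p = 0.299), and it rested on those 2 libraries, since r was 0.16 without them. *Gata6* and *Zfpm2* had r of 0.24 and -0.16 (exact permutation p = 0.565 and 0.713), with rho of 0.143 and 0.0476 (exact permutation p = 0.752 and 0.935). Without those 2 libraries r was 0.63 for *Gata6* (exact permutation p = 0.185) and 0.39 for *Zfpm2* (exact permutation p = 0.447).

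With the GC trend of each library removed, *Zfpm1* was at 186, 196.5, 191 and 174 CPM in control and at 172, 172, 204 and 175 CPM in mutant libraries. Its coefficient of variation over the 8 libraries went from 19.7% to 6.76%, and the log2 fold change from -0.23 to -0.05 (95% confidence interval -0.19 to 0.09). *Gata4* also drew closer together, with a coefficient of variation of 11.2% before and 6.90% after and a log2 fold change of -0.03. The coefficient of variation of *Gata5* went from 11.7% to 9.27%, that of *Zfpm2* from 14.4% to 14.04%, and that of *Gata6* from 10.7% to 11.2%. For *Gata5* the log2 fold change went from 0.06 to 0.14 (95% confidence interval -0.02 to 0.30, adjusted p = 0.504 in limma). *Zfpm2* went from -0.13 to -0.21 (95% confidence interval -0.44 to 0.03, adjusted p = 0.528 in limma), and *Gata6* from -0.08 to -0.01 (95% confidence interval -0.22 to 0.21). What gave the libraries their slopes was not tested.

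**Figure D3:**
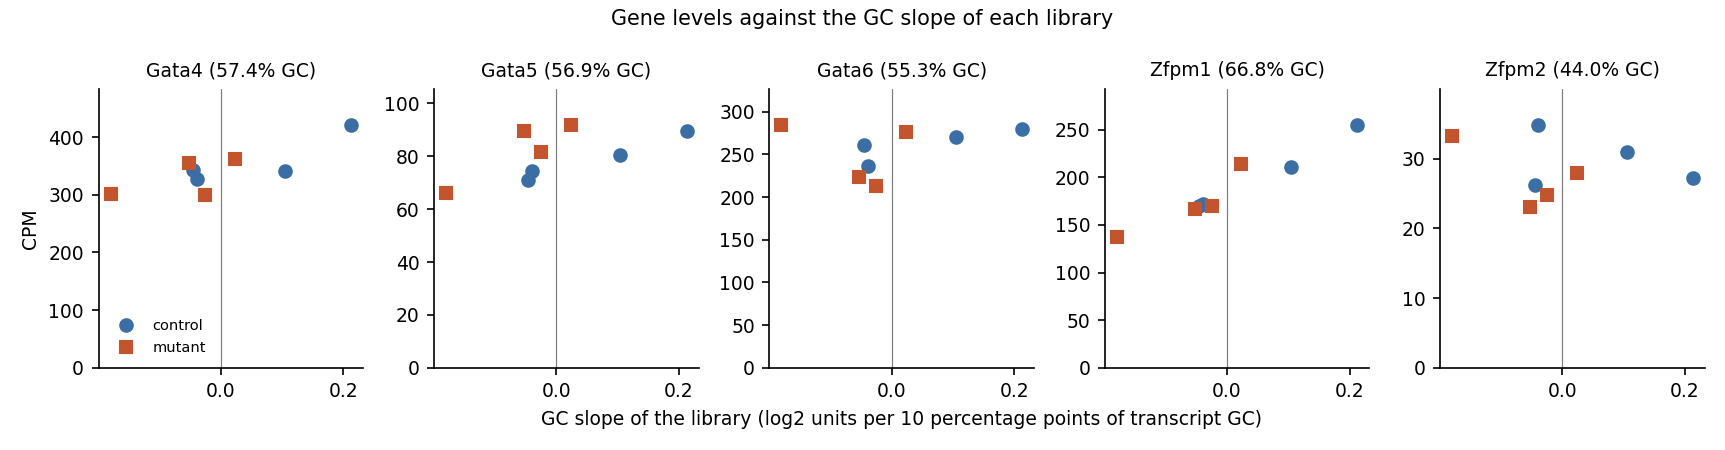
CPM of each gene (vertical axis) against the GC slope of the library (horizontal axis, log2 units per 10 percentage points of GC content), with circles for control and squares for mutant libraries. *Zfpm1* rises along the slope in both genotypes, from 169.8 to 254.5 CPM in control and from 137 to 214 CPM in mutant libraries. *Gata6* and *Zfpm2* show no such order over the 8 libraries.

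**Figure D4:**
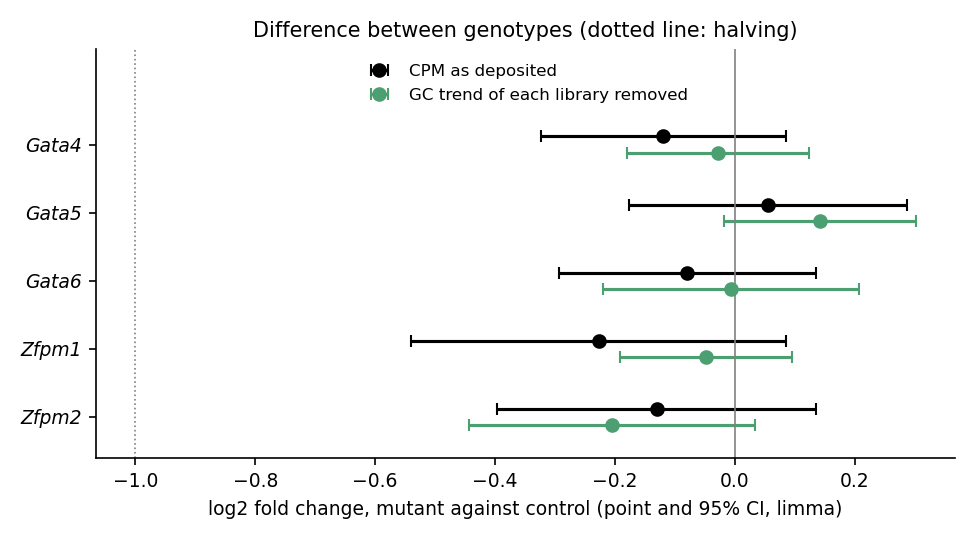
Log2 fold change of mutant against control libraries with 95% confidence intervals from limma, for CPM as deposited (black) and after removal of the GC trend of each library (green). All 10 intervals include 0, none reaches -1 (dotted line), and the interval of *Zfpm1* narrows from -0.54 to 0.09 to -0.19 to 0.09.

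To see which of the 5 genes varied together, all 10 pairs were correlated over the 8 libraries. The highest r was that of *Gata4* and *Zfpm1*, 0.83 (exact permutation p = 0.0142, adjusted p = 0.142 over the 10 pairs, rho 0.643 with exact permutation p = 0.0962), followed by *Gata5* and *Zfpm1* with 0.72 (exact permutation p = 0.0475, adjusted p = 0.238, rho 0.595 with exact permutation p = 0.132) and *Gata4* and *Gata5* with 0.65 (exact permutation p = 0.0761, adjusted p = 0.254, rho 0.667 with exact permutation p = 0.0831). No pair passed after adjustment. With group means subtracted, an alternative chosen after seeing the data, *Gata5* and *Zfpm1* had r of 0.89 and rho of 0.929, without a p-value as above. With the GC trend removed these 3 values were 0.40, 0.33 and 0.31, and without the 2 libraries farthest from the median of the first gene they were 0.76, 0.45 and 0.87. *Gata6* had r between -0.16 (*Gata5*) and 0.46 (*Zfpm2*) with the other genes.

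For each of the 5 genes, the highest r over the 8 libraries to any of the 10271 genes averaging at least 10 CPM were listed as a description, since the best of so many is high by selection and all values of a library share its depth and GC slope. For *Gata4* they belonged to *Plod3* (0.989) and *Plod1* (0.984), which encode collagen lysyl hydroxylases, and *Gna11* (0.974), a G protein subunit. *Gata5* was followed most closely by *Impa2* (0.945), *Synpo* (0.938) and *Tnrc6c* (0.936), and *Gata6* by *Sqstm1* (0.975), *Gas6* (0.955) and *Sfrp1* (0.942), the last a secreted inhibitor of Wnt signalling. *Zfpm1* had *Snx8* (0.987), *Ccdc124* (0.981) and the atrial myosin light chain gene *Myl7* (0.980) at the top. Lower values were found for *Zfpm2*, with *Svep1* (0.906), *Dhrs1* (0.906) and *Gpr89* (0.896).

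The other GATA genes gave a second look at blood and endothelium. *Gata1*, the partner of FOG1 in red cells, was between 1.49 and 5.46 CPM, with the highest value in mutant replicate 1. *Zfpm1* was never below 137 CPM. These CPM values are not per length, and which cells the *Zfpm1* RNA came from was not tested. *Gata2* (endothelium and blood progenitors) was at 25.1 ± 2.20 CPM in control and 25.65 ± 3.64 CPM in mutant libraries, and *Gata3* at 25.1 ± 2.83 and 26.5 ± 8.94 CPM (SD, n = 4 each). *Gata3* was lowest in mutant replicate 2, at 13.3 CPM, against 21.3 to 32.3 CPM elsewhere. Of the 7 genes of this list, which also holds *Trps1* and the GATAD proteins, 0 passed an adjusted p-value of 0.05 in limma, and 1 was above control (*Trps1*, log2 fold change 0.32) and 1 below (*Gatad2a*, -0.19) at p under 0.05 before adjustment, beside 12.1% of all genes in either direction. *Trps1* was chosen after its values were seen. *Gatad2a*, a NuRD subunit, was between 135 and 158 CPM in control and between 112.5 and 129.9 CPM in mutant libraries, the only gene of the list without overlap, beside 7.1% of all genes (adjusted p = 0.376 in limma).

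Proteins that bind DNA together with GATA factors were followed in a list of 17 genes, of which 0 passed an adjusted p-value of 0.05 in limma. Before adjustment 2 were higher and 3 lower in the mutant libraries at p under 0.05, beside 12.1% of all genes in either direction, and with the GC trend removed 3 were higher and 1 lower. As deposited, 4 of 17 had groups that did not overlap, beside 7.1% of all genes. The median log2 fold change was -0.02, beside 0.001 over all genes, and it was 0.003 with every library at the same sum. *Isl1*, a factor of second heart field progenitors, was at 25.7, 26.8, 33.0 and 31.1 CPM in control and at 59.2, 40.7, 43.4 and 41.4 CPM in mutant libraries (log2 fold change 0.64, standard error 0.12, adjusted p = 0.142 in limma). *Nkx2-5*, which binds GATA4 on cardiac promoters, was at 97.4, 130.3, 109.6 and 92.5 CPM in control and at 81.9, 65.2, 83.0 and 81.8 CPM in mutant libraries (log2 fold change -0.45, standard error 0.11, adjusted p = 0.228 in limma). Both genes had every mutant library on the same side of every control library. *Nkx2-5* has 67.1% GC, close to *Zfpm1*, and its highest and lowest values fell in the same 2 libraries as those of *Zfpm1*. The other genes without overlap were *Mef2d* (log2 fold change -0.19) and *Smad4* (0.16). *Tbx5*, the T-box partner of GATA4, was at 17.0 ± 3.08 and 12.97 ± 5.30 CPM (SD, n = 4 each) with overlapping values.

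Corepressors and coactivators, the machinery that FOG and GATA proteins recruit, made up a list of 17 genes, of which 12 had a lower and 5 a higher mean log2 level in the mutant libraries. Over all genes 7249 were lower and 7359 higher. With the GC trend removed, 9 genes of the list were lower and 8 higher. Of these 17 genes 0 passed an adjusted p-value of 0.05 in limma, and 1 was higher and 0 lower at p under 0.05 before adjustment, beside 12.1% of all genes in either direction. The median log2 fold change was -0.05. The gene with p under 0.05 was *Hdac2*, a NuRD deacetylase, at 178.5, 162, 178 and 193 CPM in control and at 205, 241, 203 and 204 CPM in mutant libraries (log2 fold change 0.26, standard error 0.08, adjusted p = 0.270 in limma). The CtBP genes *Ctbp1* and *Ctbp2* had log2 fold changes of -0.08 and -0.04, and *Ep300*, an acetyltransferase that activates with GATA4, had -0.10.

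Known cardiac targets of GATA4 or GATA6 made up a list of 24 genes, of which 0 passed an adjusted p-value of 0.05 in limma. Before adjustment, 8 were lower at p under 0.05 and 2 higher (*Isl1* and *Wnt2*) in the mutant libraries, or 41.7% of the list beside 12.1% of all genes. The median log2 fold change was -0.10, beside 0.001 over all genes. *Lrrc10*, a leucine-rich repeat protein of the heart muscle, was at 27.3, 25.7, 28.3 and 23.9 CPM in control and at 16.6, 17.7, 17.8 and 18.1 CPM in mutant libraries (log2 fold change -0.57, standard error 0.08, adjusted p = 0.124 in limma). *Tnnc1*, cardiac troponin C, was between 621 and 681 CPM in control and between 532 and 552 CPM in mutant libraries (log2 fold change -0.27, standard error 0.06, adjusted p = 0.2035 in limma). *Nppa*, the atrial natriuretic peptide gene and a classical GATA4 target, was chosen after its values were seen, and it was at 157, 99.1, 122 and 65.9 CPM in control and at 61.9, 5.67, 8.68 and 109 CPM in mutant libraries. Mutant replicates 2 and 3 were far below the rest in *Nppa*, and mutant replicate 4 lay within the control values. *Sema3c* and *Plxna2*, which encode a guidance signal and a receptor of the OFT and are GATA6 targets, had log2 fold changes of 0.27 and 0.19 with overlapping values (adjusted p = 0.445 and 0.432 in limma).

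Markers of heart muscle moved with this list. Of 17 cardiomyocyte markers 16 were lower at p under 0.05 before adjustment, beside 6.62% of all genes, and 0 after it in limma, with a median log2 fold change of -0.34, and their summed level was 32160 to 37880 CPM in control and 25590 to 30030 CPM in mutant libraries. *Nppa*, *Myh6*, *Tnni3* and *Actc1* are in both lists. The other targets lower at p under 0.05 before adjustment in limma were *Nppb*, *Tnnc1*, *Nkx2-5* and *Lrrc10*, which are also genes of heart muscle. The part of this shift in the levels of the target list was not tested. The 5 GATA and FOG genes were not lower by as much as the cardiomyocyte median in any of their point estimates, which ran from -0.23 to 0.06, but the intervals of *Zfpm1* and *Zfpm2* reached past it.

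**Figure D5:**
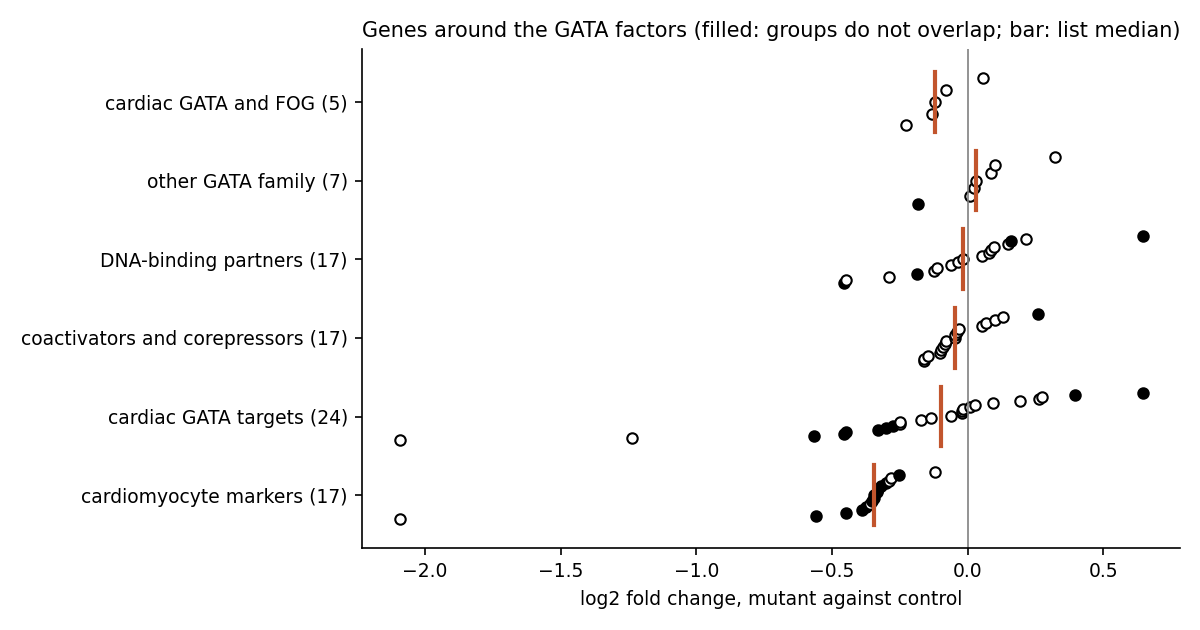
Log2 fold change of mutant against control libraries for the 5 GATA and FOG genes and 5 lists of related genes, with the number of genes in brackets, filled points where the groups do not overlap, and bars at the list medians. The 5 GATA and FOG genes lie between -0.23 and 0.06 with 0 filled points, while the cardiomyocyte markers are all below 0 with a median of -0.34.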

How the data were processed

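RNA from pools of E11.5 OFT was isolated with a column kit, and poly-A libraries were made with a directional kit. Per the labels and methods, the authors removed adapters with cutadapt, quantified single-end reads with RSEM over GRCm38 with the Ensembl genebuild, kept expressed genes, and normalized by TMM in edgeR. The deposited values are CPM (column sums between 983361 and 1016347), with 1 column per library and 0 columns left out. Whether counting was stranded is not given in the sources used here.

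Genotypes were compared with limma 3.58.1 on R 4.3.3 (lmFit, eBayes with a trend) on log2(CPM + 0.5) over all 14608 genes, adjusted by Benjamini-Hochberg, at a threshold of 0.05. This scale understates changes of low genes. The script was tested on simulated data. Single genes also had a two-sided exact permutation test over 70 relabellings (smallest p 0.0286), and correlations one over all pairings, which was not used after subtraction of group means. Inferred reads deviated from whole numbers by at most 1.1e-09, where 1 read was 0.0325 to 0.0948 CPM. Coordinates, lengths and GC content came from GENCODE M21 on GRCm38 (14600 genes matched, 14594 with GC content). The GC trend was removed by a lowess curve (span 0.3) per library.

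Genes named are the 5 GATA and FOG genes, the 3 most correlated genes of each, and up to 4 genes per related list with an unadjusted p under 0.05 and no overlap, beside markers that check the tissue and a few named after their values were seen. The 5 genes, 4 lists of related genes and 11 marker lists were chosen with earlier results of these data known.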

Additional observations from a re-analysis of the deposited data

Results flagged for a closer look

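*Gata4* in control replicate 2 was at 420 CPM, a value set apart from the other 3 control libraries (gap to the nearest divided by the range, 0.839, just past Dixon's 95% critical value for 4 samples). Of 10 groups of 4 libraries tested over the 5 genes this was the only such case, and chance alone gives about 5% per group. The same library had the fewest reads and the highest GC slope, and with the GC trend removed its *Gata4* value was 375 CPM with a ratio of 0.464. The part of the slope in this value was not tested further.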

How the results depend on the processing

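Over 17 alternatives per gene, 0 of the 85 fits of the 5 genes passed an adjusted p-value of 0.05, and 1 changed direction (*Gata5* without mutant replicate 3, -0.00034). Leaving out each library in turn gave log2 fold changes from -0.17 to -0.04 for *Gata4*, -0.00034 to 0.16 for *Gata5*, -0.15 to -0.01 for *Gata6*, -0.34 to -0.11 for *Zfpm1* and -0.23 to -0.05 for *Zfpm2*. Before adjustment, p was under 0.05 for *Zfpm1* without mutant replicate 3 (adjusted p = 0.4505 in limma) and for *Gata5* with sample weights, at 0.18 on the log2 scale (95% interval 0.01 to 0.35, adjusted p = 0.437 in limma). Sample weights also moved *Gata4* to -0.02, *Zfpm1* to -0.08 and *Zfpm2* to -0.22. With these weights 2 genes of the table passed the threshold in limma, while the other alternatives left 0, and leaving out a library moved the number of genes with an unadjusted p-value under 0.05 between 1121 and 2163. The replicate numbers did not pair the libraries (correlation of deviations between -0.185 and 0.0349 for the 4 numbers, 0 of 4 control libraries closest to their own number), and with the replicate block 1304 genes had an unadjusted p-value under 0.05 and *Gata6* had a log2 fold change of -0.08 (adjusted p = 0.7175 in limma). With the longest transcript as length the levels were 101.1 CPM per kb for *Gata4*, 67.5 for *Gata6* and 4.93 for *Zfpm2*. Without the 2 libraries farthest from the median the correlation of *Gata4* with *Gata6* became -0.34, that of *Gata5* with *Gata6* 0.35 and that of *Gata6* with *Zfpm2* -0.38. Subtraction of group means and removal of the GC trend for these correlations were chosen after seeing the data. With group means subtracted *Gata5* and *Zfpm1* had an r of 0.89, and with the GC trend removed *Zfpm1* and *Zfpm2* had 0.44. The causes were not tested. The 3 planned count tests were not run. Depth limited *Zfpm2* most, at 287 reads in its lowest library.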

Other observations

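Markers of the other cell types that express GATA or FOG genes were summed per library. Endocardium and endothelium, where *Gata4*, *Gata5* and *Zfpm1* are also known to be active, had a summed level of 1111 to 1351 CPM in control and 1131 to 1230 CPM in mutant libraries (0 of 14 genes above and 3 below control at p under 0.05 before adjustment in limma, which 12.1% of all genes reached in either direction). Cushion mesenchyme markers summed to 7451 to 8087 and 7053 to 9111 CPM (0 of 14 genes), and epicardial markers to 434.5 to 572 and 418 to 712 CPM (1 of 10 lower). The 7 OFT myocardium markers in the table summed to 1240 to 1307 CPM in control and 1379 to 1686 CPM in mutant libraries without overlap (1 of 7 higher). Taken singly, only *Rgs5* of these 7 had groups without overlap, beside 7.1% of all genes. It was at 242.5 ± 22.2 CPM in control and 362 ± 58.1 CPM in mutant libraries (SD, n = 4 each) and is also in the smooth muscle list. The 7 second heart field markers summed to 44.0 to 55.6 and 70.6 to 105 CPM (4 of 7 higher, *Isl1* among them). Smooth muscle markers gave 3603 to 4078 and 3450 to 4073 CPM (3 higher and 3 lower of 12).

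Erythroid markers, which bear on *Zfpm1* through its role in red cells, ranged from 1872 to 3796 CPM in control and from 1570 to 5805 CPM in mutant libraries (0 of 15 genes in either direction). Macrophage markers summed to 58.4 to 74.3 and 58.9 to 92.1 CPM (0 of 10), markers of neural crest and neurons to 108 to 135 and 99.05 to 138 CPM (2 of 7 higher), and those of epithelium and endoderm to 70.1 to 90.5 and 78.3 to 86.7 CPM, with 3 of 10 listed genes in the table.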
